A study of Mus musculus with 27 samples.

Results

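H3K4me3, the trimethylation of lysine 4 of histone H3, was compared at gene promoters between induced pluripotent stem cells (iPSCs) and the mouse embryonic fibroblasts (MEFs) they were made from. The comparison used 4 of the 27 libraries of the series, replicates 1 and 2 of each cell type. The members are the 20156 transcription start sites (TSSs) of the authors' expression table, and each was given the reads of the called nucleosomes whose centre (dyad) lay within 1000 bp of it. Of these promoters, 17218 had enough reads to be tested and 2938 did not. A total of 2266 had the TSS of another gene within 2000 bp, 95 of them at the same base, and share reads with that gene.

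H3K4me3 is written around the start sites of genes by the SET1 and MLL complexes, and it is found at most CpG-rich promoters and at transcribed genes. H3K27me3, written by Polycomb repressive complex 2, marks silent promoters, and in pluripotent cells the promoters of many developmental regulators carry both marks. Reprogramming silences the genes of the fibroblast and switches on those of the pluripotent cell, so promoter H3K4me3 is one readout of which genes are open to transcription at either end.

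The MEFs came from E13.5 embryos hemizygous for an Oct4-GFP transgene and a Rosa26 allele, with CBA/CaJ and C57BL/6J named as genetic background in the labels and, by the study's methods, mothers of a further inbred strain, and were used within 3 passages. The iPSCs and the pre-iPSCs, a stalled intermediate, were derived from such MEFs with retroviruses carrying Oct4, Sox2, Klf4 and c-Myc and were analysed after 6 passages. The iPSCs were grown on mitomycin C-inactivated MEF feeders in serum with LIF. Chromatin was cut with MNase before the immunoprecipitation, and the amount of enzyme and the time differed between MEFs and the other cells, so the digestion cannot be told apart from the cell type. Which clone each library came from is not given in the sources used here. The p-values measure only the spread between these samples, which the tests share in part across promoters or genes.

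The H3K4me3 calls held between 12007350 and 13005093 reads in each of the 4 libraries, a median of 32 reads per promoter and library. Levels are given below in normalised RPKM, reads per kb of window scaled to sequencing depth, after edgeR's TMM scaling over promoters for H3K4me3 and H3K27me3. H3 levels were scaled to unique reads alone, with no TMM factor, so they are not on the scale of the other marks. Pairs of values are replicates 1 and 2 in that order. The standard error (SE) after ± is the log2 change divided by the square root of the F statistic of edgeR's test. That statistic shares spread across promoters, so the SE need not follow the distance between the libraries of a cell type. The cells matched their labels in RNA. The 10 pluripotent markers summed to 0.0233 and 0.904 FPKM in MEFs and to 2430 and 2300 FPKM in iPSCs, where all 10 were at 1 FPKM or more. The 11 fibroblast markers summed to 7660 and 9470 FPKM in MEFs and to 427 and 557 FPKM in iPSCs, and all 11 were still at 1 FPKM or more in both iPSC libraries. Feeder cells express these genes, and their part in the iPSC values was not tested.

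Some chromosomes stood apart. In iPSC replicate 1 chromosome 8 held 7.53% of the H3K4me3 reads, against 5.20% and 5.17% in MEFs, and the share was 1.5 times that of MEF replicate 1 for H3 and 1.45 times for H3K27me3. In iPSC replicate 2 these ratios were 1.01 to 1.03. The genes of chromosome 8 moved the same way in RNA, with a median log2 difference from MEFs of 0.39 in iPSC replicate 1 and -0.18 in iPSC replicate 2 over 672 genes. Chromosome X held a smaller share in iPSCs, 0.730 and 0.749 of that in MEF replicate 1 and 0.594 and 0.609 of that in MEF replicate 2. With that scaling, H3 at promoters was also higher in iPSC replicate 1, with a median of 0.440 RPKM over all tested promoters against 0.207 to 0.243 RPKM in the other 3 libraries. The number of copies of these chromosomes was not measured, and results that rest on them are given with the chromosome medians made equal as well.

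**Figure D1:**
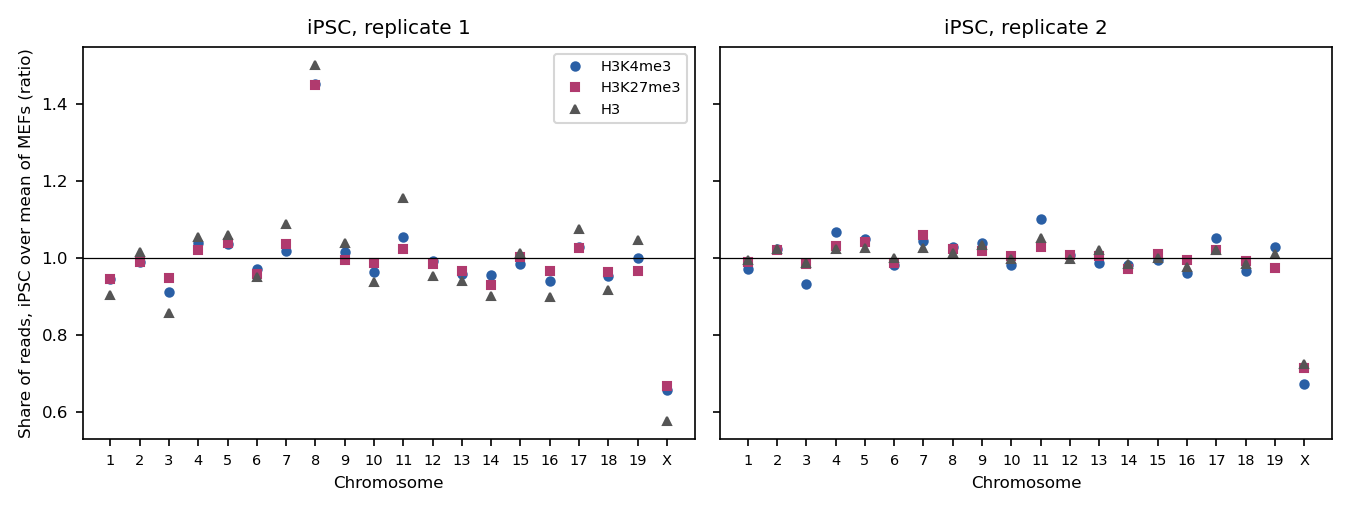
Share of the reads of each chromosome in iPSC replicate 1 (left) and replicate 2 (right) over the mean share in the MEF libraries, for H3K4me3, H3 and H3K27me3, with chromosomes on the horizontal axis and a line at a ratio of 1. Chromosome 8 stands near 1.5 in all 3 marks in replicate 1 and near 1 in replicate 2, and chromosome X lies below 1 in both.

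More promoters gained the mark than lost it under the scaling to promoters. At an adjusted p below 0.05 (edgeR's quasi-likelihood test with Benjamini-Hochberg adjustment over all 17218 promoters) and a change of at least 2-fold, 1399 promoters (8.13%) gained H3K4me3 in iPSCs, 167 (0.97%) lost it, and 15652 were called neither way. The log2 change had a median of 1.46 over the gains, from 1.0 to 3.49, of -1.19 over the losses, from -1.0 to -3.88, and of -0.04 over all tested promoters. The balance of gains and losses depended on the scaling. Gains made up 89.3% of the calls with TMM over promoters, 54.6% with TMM over 10-kb bins of the genome (650 gains and 541 losses) and 35.4% with unique reads alone (713 gains and 1300 losses), where the median of all promoters moved to -0.38. With quantile-normalised levels there were 698 gains and 174 losses, 80% gains. At an unadjusted p under 0.05 in the main edgeR test, 3011 of the 17218 promoters were higher and 2041 lower, the background for such counts in the lists below. Where the groups of a called promoter are said not to overlap, the same libraries made the call, so this only describes it.

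The number of calls also depended on the tool and on single libraries. DESeq2 with its own size factors called 30 gains and 0 losses, with 1455 gains and 455 losses at an unadjusted p under 0.05. The median dispersion, the spread DESeq2 assigns to a promoter, was 0.0665, and the median trended dispersion in edgeR was 0.011. The edgeR test also estimates a quasi-dispersion for each promoter, which is not in that value. The dispersions of the tools are therefore not like for like. The median log2 change of all promoters was -0.024 in DESeq2 and -0.036 in edgeR, and the 1399 gains and 167 losses kept their sign. The tools differ in scaling, dispersion and test together, and which of these matters was not tested. Without MEF replicate 1, iPSC replicate 1 or iPSC replicate 2 there were 690, 527 and 879 gains. Without MEF replicate 2 or iPSC replicate 2 there were 293 and 305 losses. In the lists below, DESeq2 called 1 of the other pluripotency genes and 2 of the germ layer factors, and none of the members of any other list.

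Over the whole window, the gains were promoters weakly marked in MEFs whose median in iPSCs came close to that of all tested promoters. Their median was 0.297 and 0.378 RPKM in MEFs and 1.01 and 0.968 RPKM in iPSCs, while all tested promoters had 1.16 and 1.10 RPKM in MEFs and 1.07 and 1.08 RPKM in iPSCs. The losses went the other way, from 1.48 and 1.39 RPKM in MEFs to 0.603 and 0.658 RPKM in iPSCs. In pre-iPSCs, which no call used, both classes lay between MEFs and iPSCs, the gains at 0.717 and 0.703 RPKM and the losses at 0.922 and 1.02 RPKM. The MEF and iPSC levels of the classes follow from the calls and are given as a description. Libraries outside such a choice tend to fall between the groups it was made from, so the pre-iPSC levels are a description too. H3 in the same windows had a median of 0.335 and 0.365 RPKM in MEFs and 0.720 and 0.368 RPKM in iPSCs at the gains, and of 0.190 and 0.171 and then 0.280 and 0.216 RPKM at the losses. Around the TSS the mean level of the gains was flat in MEFs, between 0.283 and 0.523 RPKM within 2000 bp of the TSS. In iPSCs it formed a hump with 1.43 and 1.15 RPKM at 150 bp downstream, below the 2.18 and 1.74 RPKM of all tested promoters there. The lowest bins of the gains held 0.612 and 0.697 RPKM in iPSCs, so their level was higher over the whole stretch and not at the TSS alone. At the losses the position 150 bp downstream held 3.39 and 2.88 RPKM in MEFs and 1.37 and 1.08 RPKM in iPSCs.

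**Figure D2:**
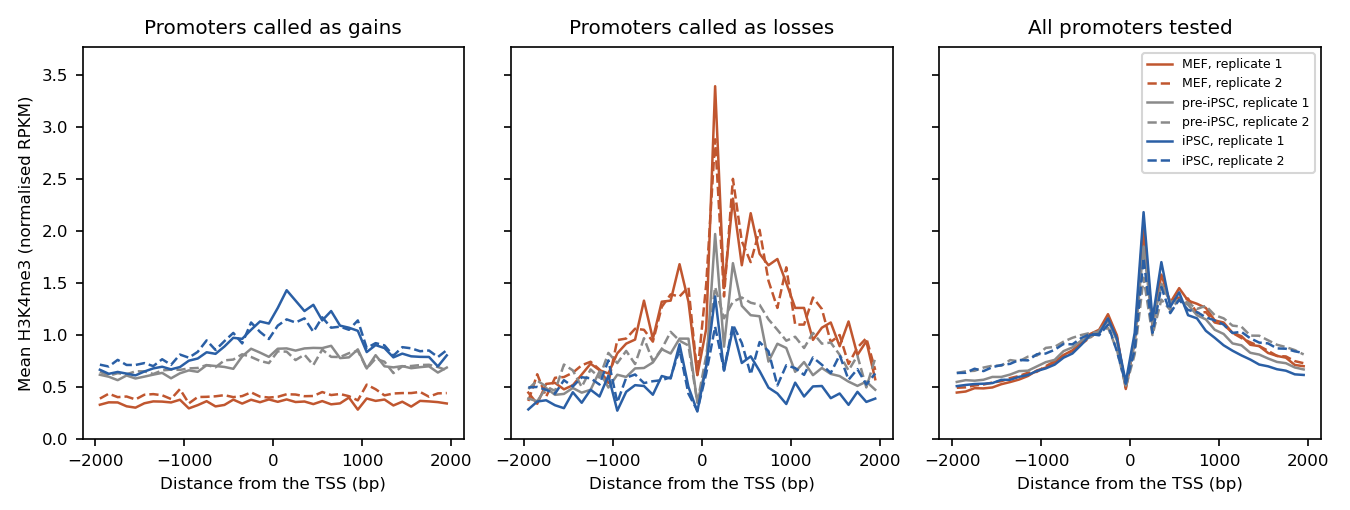
Mean H3K4me3 (normalised RPKM, vertical axis) in bins around the TSS (distance in bp, horizontal axis) for promoters called as gains, as losses and for all tested promoters, with 1 line per library and replicate 2 dashed. At 150 bp downstream the gains reach 1.43 and 1.15 RPKM in iPSCs against a flat line in MEFs, and the losses fall from 3.39 and 2.88 RPKM in MEFs to 1.37 and 1.08 RPKM in iPSCs.

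Gained promoters had fewer CpG dinucleotides than all tested promoters, and the gains that depended on the scaling had the fewest. Their 2-kb windows held a median of 41 CpG, against 61 in the losses and 76 in all tested promoters, although the GC content of the gains (53.7%) was close to that of all (53.1%) and above that of the losses (47.7%). In the 300 bp around the TSS the ratio of observed to expected CpG had a median of 0.320 in the gains, 0.724 in the losses and 0.694 in all. The letters GGGCGG, the core of an Sp1 site, stood on either strand in 38.8% of the gained 300-bp promoters, 55.7% of the lost ones and 56.4% of all. These values differed between the 624 gains that quantile-normalised levels also called, with medians of 56 CpG and 0.418 for the ratio and GGGCGG in 49.2%, and the 775 that they did not, with 34 CpG, 0.270 and 30.5%. CACCTG, an E-box that Snail and Zeb factors can bind, was found in 33.6% of the gains, 16.2% of the losses and 19.4% of all. In the same order, TATAAA was found in 10.5%, 13.8% and 9.35%, the octamer ATTTGCAT in 1.79%, 2.40% and 1.52%, TGANTCA, the AP-1 site, in 7.29%, 5.39% and 5.63%, and GGAATG, which Tead factors can bind, in 14.1%, 15.0% and 12.3%. These shares are a description of letters, and the promoters called differ from the rest in CpG content as well. Gains were called mainly at promoters weakly marked in MEFs. Their upper quartile there was 0.445 and 0.504 RPKM, below the lower quartile of all tested promoters, 0.512 and 0.567 RPKM. Weakly marked promoters that did not gain were not compared, so sequence features of gaining cannot be told apart from those of a low level in MEFs.

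The following promoters (RefSeq start sites, mm9 sequence, 300 bases that reach just past the start, on the strand of the gene) were picked for large changes and do not represent the classes. Capitals mark matches on either strand to the 6 motifs above. Pou5f1, Calb2 and Grtp1 were the largest gains, and Cwc22, Rbms3 and Irgm1 the largest losses, under the rule for strongly marked promoters. L1td1, Hand1, Col3a1 and Anxa1 were added after their values were seen, as the pluripotency, germ layer, matrix and fibroblast genes that changed most clearly. Pou5f1, Calb2, Grtp1, L1td1 and Hand1 held 11, 28, 26, 14 and 6 CpG, where the gains had a median of 7. Cwc22, Rbms3, Irgm1, Col3a1 and Anxa1 held 11, 7, 13, 0 and 3, where the losses had a median of 16.
Pou5f1, chr17:35642727-35643026, plus strand: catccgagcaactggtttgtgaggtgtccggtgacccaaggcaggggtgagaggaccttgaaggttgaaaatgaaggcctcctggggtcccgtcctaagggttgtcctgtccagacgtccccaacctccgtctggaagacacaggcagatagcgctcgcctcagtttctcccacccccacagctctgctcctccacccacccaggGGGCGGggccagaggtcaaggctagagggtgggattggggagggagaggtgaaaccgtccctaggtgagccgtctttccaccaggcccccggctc
Calb2, chr8:112692057-112692356, minus strand: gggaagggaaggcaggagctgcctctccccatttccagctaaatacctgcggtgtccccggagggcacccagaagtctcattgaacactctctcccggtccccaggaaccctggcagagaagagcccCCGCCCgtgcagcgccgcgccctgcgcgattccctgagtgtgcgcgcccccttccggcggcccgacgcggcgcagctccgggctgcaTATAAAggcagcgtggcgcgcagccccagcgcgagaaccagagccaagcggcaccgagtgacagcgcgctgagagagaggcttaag
Grtp1, chr8:13200575-13200874, minus strand: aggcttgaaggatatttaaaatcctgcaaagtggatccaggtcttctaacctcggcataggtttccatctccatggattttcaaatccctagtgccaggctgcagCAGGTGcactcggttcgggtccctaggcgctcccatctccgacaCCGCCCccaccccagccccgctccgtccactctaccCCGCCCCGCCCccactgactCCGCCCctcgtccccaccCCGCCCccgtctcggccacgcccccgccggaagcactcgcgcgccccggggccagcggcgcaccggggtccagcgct
L1td1, chr4:98393195-98393494, plus strand: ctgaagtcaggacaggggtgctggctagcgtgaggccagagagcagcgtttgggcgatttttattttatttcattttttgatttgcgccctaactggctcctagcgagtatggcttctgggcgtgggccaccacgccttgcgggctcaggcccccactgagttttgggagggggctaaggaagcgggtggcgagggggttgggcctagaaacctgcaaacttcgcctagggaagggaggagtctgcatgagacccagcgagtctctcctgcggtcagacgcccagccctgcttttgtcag
Hand1, chr11:57645600-57645899, minus strand: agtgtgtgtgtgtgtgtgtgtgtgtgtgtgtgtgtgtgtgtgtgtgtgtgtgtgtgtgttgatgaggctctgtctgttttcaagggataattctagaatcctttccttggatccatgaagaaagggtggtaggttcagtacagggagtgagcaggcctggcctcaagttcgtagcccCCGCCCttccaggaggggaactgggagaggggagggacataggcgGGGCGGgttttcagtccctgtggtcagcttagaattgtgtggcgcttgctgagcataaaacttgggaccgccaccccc
Cwc22, chr2:77784361-77784660, minus strand: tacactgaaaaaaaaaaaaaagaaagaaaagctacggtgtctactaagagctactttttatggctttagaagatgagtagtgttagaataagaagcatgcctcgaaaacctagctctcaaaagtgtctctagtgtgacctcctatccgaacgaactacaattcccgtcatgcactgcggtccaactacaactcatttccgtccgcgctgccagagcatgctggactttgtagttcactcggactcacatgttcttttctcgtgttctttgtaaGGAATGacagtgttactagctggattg
Rbms3, chr9:117161552-117161851, minus strand: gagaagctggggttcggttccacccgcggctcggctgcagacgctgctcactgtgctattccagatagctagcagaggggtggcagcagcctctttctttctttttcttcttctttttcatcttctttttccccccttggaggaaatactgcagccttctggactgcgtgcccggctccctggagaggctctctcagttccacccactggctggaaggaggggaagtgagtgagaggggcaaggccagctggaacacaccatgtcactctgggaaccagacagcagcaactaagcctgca
Irgm1, chr11:48684799-48685098, minus strand: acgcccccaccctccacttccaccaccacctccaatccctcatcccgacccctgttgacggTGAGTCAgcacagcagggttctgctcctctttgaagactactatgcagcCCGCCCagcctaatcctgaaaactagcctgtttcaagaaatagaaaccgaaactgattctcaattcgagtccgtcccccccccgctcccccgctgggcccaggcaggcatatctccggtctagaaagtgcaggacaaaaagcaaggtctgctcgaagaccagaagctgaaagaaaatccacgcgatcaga
Col3a1, chr1:45368133-45368432, plus strand: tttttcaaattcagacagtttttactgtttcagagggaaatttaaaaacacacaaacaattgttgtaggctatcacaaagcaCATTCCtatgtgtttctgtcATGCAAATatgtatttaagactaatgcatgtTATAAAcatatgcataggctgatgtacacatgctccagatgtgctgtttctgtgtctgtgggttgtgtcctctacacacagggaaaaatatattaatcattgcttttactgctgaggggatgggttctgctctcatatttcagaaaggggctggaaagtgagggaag
Anxa1, chr19:20465112-20465411, minus strand: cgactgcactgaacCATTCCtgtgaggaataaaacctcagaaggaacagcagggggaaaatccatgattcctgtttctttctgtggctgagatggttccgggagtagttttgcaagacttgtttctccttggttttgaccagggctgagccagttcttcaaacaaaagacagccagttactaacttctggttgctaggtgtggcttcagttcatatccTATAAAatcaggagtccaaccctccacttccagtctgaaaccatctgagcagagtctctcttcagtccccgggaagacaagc
The Col3a1 window held TATAAA, with the octamer and GGAATG in reverse, and the Anxa1 window held TATAAA, with GGAATG in reverse, while the L1td1 and Rbms3 windows held none of the 6.

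Of 19 pluripotency transcription factors tested, 7 (36.8%) gained H3K4me3, 0 lost it and 12 were not called, with a median log2 change of 0.89. Of 25 other pluripotency genes 14 (56.0%) gained it, 0 lost it and 11 were not called, with a median of 1.32. Over all promoters 8.13% gained it and the median was -0.04. The lists were chosen with earlier results of these data known, and gains were called mainly at promoters weakly marked in MEFs. The shares of gains in these lists and those below are therefore a description. The list medians were 0.647 and 0.598 RPKM in MEFs and 1.41 and 1.16 RPKM in iPSCs for the factors, and 0.391 and 0.488 and then 0.972 and 1.18 RPKM for the other genes. No member of either list was lower at an unadjusted p under 0.05 in edgeR or called lower by DESeq2. The count of the factors lay between 5 and 8 with 1 library left out and was 6 under quantile normalisation and under unique reads alone. The count of the other genes was 7 without MEF replicate 1, 9 without iPSC replicate 2, 9 with quantile-normalised levels and 8 with unique reads alone.

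Sall4, a zinc finger factor of the embryonic stem cell network, had 0.566 and 0.378 RPKM in MEFs and 1.44 and 1.32 RPKM in iPSCs. Both iPSC libraries lay above both MEF libraries, with a log2 change of 1.52 ± 0.33 (SE, n = 2 and 2, adjusted p = 0.00236, edgeR). Its pre-iPSC levels were 1.5 and 1.72 RPKM, as high as in iPSCs, while its RNA was 8.08 and 4.12 FPKM there and 94.3 and 62.2 FPKM in iPSCs. L1td1, an RNA-binding protein of the pluripotent state, showed the second largest change among these genes after Pou5f1. It had 0.404 and 0.252 RPKM in MEFs and 1.44 and 1.59 RPKM in iPSCs, a log2 change of 2.17 ± 0.35 (adjusted p = 0.000205, edgeR). Tdgf1, the Nodal coreceptor Cripto, had 0.404 and 0.346 RPKM in MEFs and 1.41 and 1.51 RPKM in iPSCs (log2 change 1.94 ± 0.33, adjusted p = 0.000458, edgeR). The groups did not overlap for either gene, and the pre-iPSC libraries of both stood at 1.16 RPKM or more.

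Lefty1, a secreted Nodal antagonist, had 0.108 and 0.693 RPKM in MEFs and 1.47 and 1.35 RPKM in iPSCs. The MEF libraries differed widely but both lay below the iPSC libraries (log2 change 1.88 ± 0.40, adjusted p = 0.00206, edgeR), and without MEF replicate 1 the change was 1.03 and was no longer called. Zfp42 (Rex1), a marker of undifferentiated cells on chromosome 8, had 0.377 and 0.220 RPKM in MEFs and 1.17 and 0.774 RPKM in iPSCs, a log2 change of 1.68 ± 0.41 (adjusted p = 0.00652, edgeR). Without iPSC replicate 1 it was 1.34 and not called, and with quantile-normalised levels it was 1.42 and not called, while with equal chromosome medians it stayed a gain. Sox2, whose single exon was also carried by a retrovirus, had 0.917 and 0.818 RPKM in MEFs and 2.61 and 1.16 RPKM in iPSCs. The iPSC libraries were both higher but far apart (log2 change 1.14 ± 0.29, adjusted p = 0.00925, edgeR). The change was 0.41 without iPSC replicate 1, below 2-fold, and 0.79 with unique reads alone, not called. H3 in the Sox2 window was 0.156 and 0.207 RPKM in MEFs and 0.952 and 0.222 RPKM in iPSCs, highest in the same library as H3K4me3.

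Nanog, Tcfcp2l1, Klf4, Myc and Trap1a were not called, and the call of Dppa3 was lost in several alternatives. Nanog had 0.458 and 0.598 RPKM in MEFs and 1.01 and 0.774 RPKM in iPSCs (log2 change 0.77 ± 0.36, adjusted p = 0.15, edgeR), while its RNA was listed at 0 in both MEF libraries and at 49.5 and 73.6 FPKM in iPSCs. Tcfcp2l1, a factor of the naive network, had 0.728 and 1.10 RPKM in MEFs and 1.91 and 1.51 RPKM in iPSCs. Its groups did not overlap and its adjusted p was 0.0215 (edgeR), but its log2 change of 0.92 ± 0.27 fell short of 2-fold. It was called with quantile-normalised levels (1.04) and without MEF replicate 2 (1.24) or iPSC replicate 2 (1.08). Klf4 and Myc, which act in fibroblasts too, had log2 changes of -0.42 ± 0.24 and -0.37 ± 0.24, with adjusted p of 0.255 and 0.316 (edgeR). Dppa3, a maternal factor also called Stella, was called a gain with 0.189 and 0.504 RPKM in MEFs and 0.871 and 0.774 RPKM in iPSCs (log2 change 1.28 ± 0.43, adjusted p = 0.040, edgeR). That call was lost without MEF replicate 1 (0.71), iPSC replicate 1 (1.19) or iPSC replicate 2 (1.37), with unique reads alone (0.955) and with quantile-normalised levels (0.90). Trap1a, an X-linked tumour antigen, was at 0.387 RPKM or less in all 4 libraries and was not called (log2 change 0.60 ± 0.50, adjusted p = 0.443, edgeR), while its RNA was listed at 0 in MEFs and at 32.7 and 87.4 FPKM in iPSCs.

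Pou5f1 (Oct4), the central pluripotency factor, was the gain with the highest level in iPSCs among those named by the rule. Its window had 2.97 and 0.0944 RPKM in MEFs, 11.1 and 9.41 RPKM in pre-iPSCs and 9.82 and 9.87 RPKM in iPSCs. The log2 change was 2.63 ± 0.50 (adjusted p = 0.000822, edgeR), and the groups do not overlap because the rule requires it. The MEF libraries were far apart, and the change was 6.65 without MEF replicate 1 and 1.74 without MEF replicate 2. H3 in the same window was 3.20 and 0.338 RPKM in MEFs and 4.37 and 2.20 RPKM in iPSCs, where the median of all tested promoters was 0.223 and 0.207 RPKM and 0.440 and 0.243 RPKM. H3K27me3 was high in the same libraries as well, at 3.37 and 0.895 RPKM in MEFs and 1.42 and 1.36 RPKM in iPSCs. The embryos carried an Oct4-GFP transgene and the reprogrammed cells an Oct4 retrovirus, so reads from added copies cannot be told apart from those of the endogenous promoter. Its RNA was 0 and 0.50 FPKM in MEFs, 378 and 3184 FPKM in pre-iPSCs and 586 and 397 FPKM in iPSCs.

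**Figure D3:**
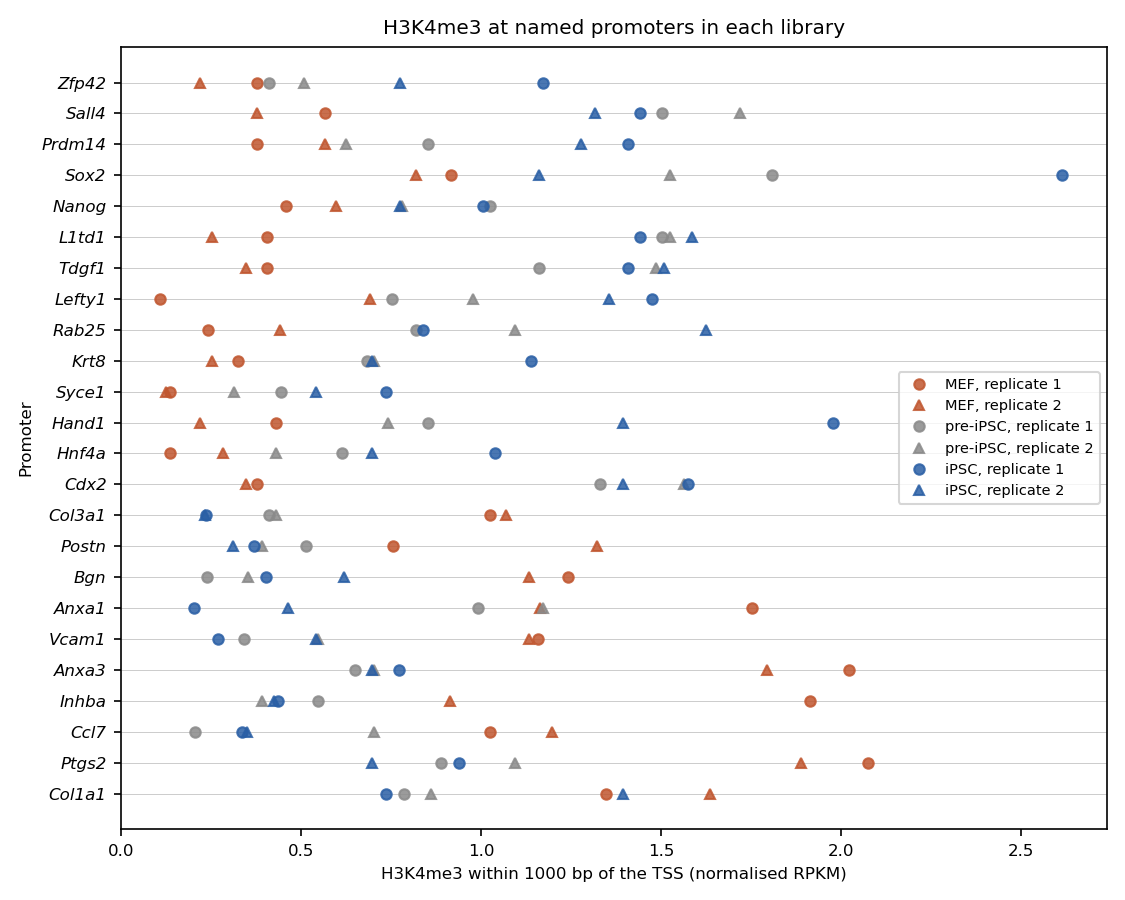
H3K4me3 within 1000 bp of the TSS (normalised RPKM, horizontal axis) for named promoters (vertical axis), with 1 point per library, coloured by cell type and shaped by replicate. The iPSC points of Sall4 (1.44 and 1.32), L1td1 (1.44 and 1.59) and Hand1 (1.98 and 1.39) lie to the right of the MEF points, and those of Col3a1 (0.235 and 0.232) and Anxa1 (0.201 and 0.464) to the left.

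Only 4 gains met the rule for strongly marked promoters, and 3 of them lie on chromosome 8. Calb2, which encodes the calcium-binding protein calretinin, had 0.351 and 0.535 RPKM in MEFs and 2.78 and 1.39 RPKM in iPSCs. The log2 change was 2.27 ± 0.32 (adjusted p = 6.86e-05, edgeR), and the groups do not overlap because the rule requires it. Calb2 stayed called with the chromosome medians made equal. H3 in its window was 0.357 and 0.455 RPKM in MEFs and 1.01 and 0.395 RPKM in iPSCs, highest in the same library as H3K4me3. Grtp1, a protein with a TBC domain, had 1.16 and 0.913 RPKM in MEFs and 2.38 and 2.55 RPKM in iPSCs, with a log2 change of 1.24 ± 0.24 (adjusted p = 0.00115, edgeR), and its RNA rose from 0.0838 and 0.387 FPKM to 11.5 and 12.5 FPKM (limma, adjusted p = 0.00446). Dbndd1 had 1.02 and 1.13 RPKM in MEFs and 2.68 and 1.66 RPKM in iPSCs, with a log2 change of 1.03 ± 0.25 (adjusted p = 0.00733, edgeR), and was not called without iPSC replicate 1 (0.63) or MEF replicate 1 (0.95). H3 in the Dbndd1 window was 0.268 and 0.266 RPKM in MEFs and 1.18 and 0.303 RPKM in iPSCs, again highest in the library with the most H3K4me3. With equal chromosome medians the log2 change fell from 1.24 to 0.93 for Grtp1 and from 1.03 to 0.70 for Dbndd1, and neither was called, nor was either with unique reads alone (0.88 and 0.68). Over chromosome 8 there were 138 gains among 916 promoters (15.1%) and 0 losses, and 68 gains and 8 losses with equal medians.

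Of 36 epithelial genes tested, 13 (36.1%, against 8.13% of all promoters) were gains, 0 were losses and 23 were not called, with a median log2 change of 0.83. In RNA 24 of the 31 that passed the FPKM filter were higher and 2 lower (limma, 10.3% and 15.5% of all tested genes), and genes silent in MEFs could pass only through the reprogrammed cells. In edgeR 1 was lower at an unadjusted p under 0.05, and DESeq2 called none. The number of gains was 5 without iPSC replicate 1, 7 without iPSC replicate 2, 5 with unique reads alone and 8 with quantile-normalised levels. Rab25, a GTPase of apical recycling, had 0.243 and 0.441 RPKM in MEFs and 0.838 and 1.63 RPKM in iPSCs (log2 change 1.84 ± 0.39, adjusted p = 0.00239, edgeR). Krt8, a keratin of simple epithelia, had 0.324 and 0.252 RPKM in MEFs and 1.14 and 0.697 RPKM in iPSCs (log2 change 1.67 ± 0.42, adjusted p = 0.0078, edgeR). Pkp3, a desmosome protein, had 0.189 and 0.472 RPKM in MEFs and 1.14 and 0.813 RPKM in iPSCs (log2 change 1.60 ± 0.41, adjusted p = 0.00937, edgeR). In all of these the iPSC libraries lay above the MEF libraries. Krt8 and Pkp3 were not called without iPSC replicate 1 (1.25 and 1.32) or with quantile-normalised levels (1.37 and 1.28), Pkp3 not without MEF replicate 1 (1.06), and Rab25 not without iPSC replicate 2 (1.31).

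Of 27 germline genes tested, 11 (40.7%, against 8.13% of all promoters) were gains, 0 were losses and 16 were not called, with a median log2 change of 1.23. In RNA 21 of the 22 that passed the FPKM filter were higher (limma, 10.3% of all tested genes), but genes near 0 in MEFs could pass only through the other cells, so this count gives no direction for the list. The list medians were 0.243 and 0.378 RPKM in MEFs and 0.704 and 0.619 RPKM in iPSCs, below the median of all promoters in every library. No member was lower at an unadjusted p under 0.05 or by DESeq2. This count was the least stable of the lists that gained: it was 3 without MEF replicate 1, 0 without iPSC replicate 1, 7 without iPSC replicate 2, 15 without MEF replicate 2, 1 with quantile-normalised levels and 6 with unique reads alone. Syce1, a protein of the synaptonemal complex that joins paired meiotic chromosomes, had 0.135 and 0.126 RPKM in MEFs and 0.737 and 0.542 RPKM in iPSCs (log2 change 2.27 ± 0.51, adjusted p = 0.00372, edgeR). Sycp3 had 0.108 and 0.346 RPKM in MEFs and 0.972 and 0.619 RPKM in iPSCs, and Sycp1 had 0.189 and 0.220 and then 0.637 and 0.813 RPKM. Both belong to the same complex, and their log2 changes were 1.86 ± 0.47 and 1.80 ± 0.46 (adjusted p = 0.00901 and 0.0091, edgeR). Without iPSC replicate 1 none of these was called (2.02, 1.47 and 1.98). Sycp3 and Sycp1 were also lost without MEF replicate 1 (1.21 and 1.69) and with quantile-normalised levels (1.53 and 1.37), and Sycp1 without iPSC replicate 2 (1.63). Ddx4 (Vasa), a germ cell helicase, had 0.324 and 0.441 RPKM in MEFs and 0.704 and 0.968 RPKM in iPSCs and just missed the call (log2 change 1.12 ± 0.40, adjusted p = 0.0556, edgeR). It was called with equal chromosome medians (1.25) and without MEF replicate 2 (1.35).

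Of 31 germ layer transcription factors tested, 10 (32.3%, against 8.13% of all promoters) were gains, 0 were losses and 21 were not called, with a median log2 change of 0.68, and the count lay between 7 and 11 with unique reads alone, with quantile-normalised levels and with any 1 library left out. In this list 1 member was lower at an unadjusted p under 0.05 (edgeR), and DESeq2 called 2 gains and 0 losses. Only 9 of the genes had enough RNA to be tested, of which 5 were higher and 2 lower (limma, 10.3% and 15.5% of all tested genes), and these speak for the expressed members alone. Hand1, a factor of trophoblast and heart, had 0.431 and 0.220 RPKM in MEFs and 1.98 and 1.39 RPKM in iPSCs (log2 change 2.34 ± 0.34, adjusted p = 8.1e-05, edgeR), and its RNA was under 0.4 FPKM in every library. Cdx2, a trophoblast and posterior factor, had 0.377 and 0.346 RPKM in MEFs and 1.57 and 1.39 RPKM in iPSCs (log2 change 2.02 ± 0.34, adjusted p = 0.000334, edgeR). Hnf4a, an endodermal nuclear receptor, had 0.135 and 0.283 RPKM in MEFs and 1.04 and 0.697 RPKM in iPSCs (log2 change 2.08 ± 0.46, adjusted p = 0.00323, edgeR), and was not called without iPSC replicate 1 (1.75). The groups did not overlap in any of them. H3K27me3 lay between 0.598 and 1.25 RPKM at all 3 promoters in all 4 libraries, above the medians of all tested promoters (0.192 to 0.285 RPKM), and no change was called (adjusted p = 0.255 for Hand1, 0.353 for Cdx2 and 0.718 for Hnf4a, edgeR).

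Of 40 extracellular matrix genes, 5 (12.5%, against 0.97% of all promoters) lost H3K4me3, 0 gained it and 35 were not called, with a median log2 change of -0.41. In RNA 37 of 41 were lower and 1 higher (limma), where 15.5% of all tested genes were lower. Of 24 fibroblast surface and cytoskeletal genes, 4 (16.7%) were losses, 0 gains and 20 not called, with a median of -0.43, and in RNA 21 of 24 were lower. No matrix gene was higher at an unadjusted p under 0.05 and 2 of the surface genes were, and DESeq2 called none. The losses of the matrix genes were 2 without iPSC replicate 1, 8 without MEF replicate 2 and 12 with unique reads alone. Those of the surface genes were 2 without iPSC replicate 1 and 7 with unique reads alone.

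Col3a1, a fibrillar collagen, had 1.02 and 1.07 RPKM in MEFs and 0.235 and 0.232 RPKM in iPSCs. Both replicates were close and the groups far apart (log2 change -2.15 ± 0.42, adjusted p = 0.00107, edgeR), and its RNA was 126 and 271 FPKM in MEFs and 28.1 and 37.0 FPKM in iPSCs. Postn (periostin), a matrix protein of connective tissue, had 0.755 and 1.32 RPKM in MEFs and 0.369 and 0.310 RPKM in iPSCs (log2 change -1.58 ± 0.40, adjusted p = 0.00899, edgeR), and was not called without MEF replicate 2 (-1.13). Bgn (biglycan), an X-linked proteoglycan, had 1.24 and 1.13 RPKM in MEFs and 0.402 and 0.619 RPKM in iPSCs (log2 change -1.23 ± 0.34, adjusted p = 0.0143, edgeR). With equal chromosome medians Bgn was at -0.96, and it was at -1.16 without MEF replicate 1 and -0.94 without iPSC replicate 1, called in none of these. Over chromosome X there were 23 losses among 471 promoters (4.88%), and 8 with equal medians. Col1a1, the main fibrillar collagen, had 1.35 and 1.64 RPKM in MEFs and 0.737 and 1.39 RPKM in iPSCs. Its change was not called (log2 change -0.50 ± 0.28, adjusted p = 0.23, edgeR), while its RNA fell from 2144 and 1614 FPKM to 74.7 and 70.6 FPKM (limma, adjusted p = 0.00148).

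Anxa1, a phospholipid-binding annexin, had 1.75 and 1.16 RPKM in MEFs and 0.201 and 0.464 RPKM in iPSCs (log2 change -2.17 ± 0.37, adjusted p = 0.000423, edgeR), and its RNA went from 697 and 861 FPKM to 22.0 and 28.9 FPKM. Anxa3, of the same family, had 2.02 and 1.79 RPKM in MEFs and 0.771 and 0.697 RPKM in iPSCs (log2 change -1.37 ± 0.27, adjusted p = 0.00122, edgeR). Vcam1, a cell adhesion molecule of mesenchymal cells, had 1.16 and 1.13 RPKM in MEFs and 0.268 and 0.542 RPKM in iPSCs (log2 change -1.52 ± 0.37, adjusted p = 0.00643, edgeR), and was not called without iPSC replicate 1 (-1.08). The groups did not overlap for any of these. Inhba, the activin A subunit and the 1 loss among 22 TGF-beta pathway genes, had 1.91 and 0.913 RPKM in MEFs and 0.436 and 0.426 RPKM in iPSCs (log2 change -1.73 ± 0.36, adjusted p = 0.00185, edgeR), and was not called without MEF replicate 1 (-1.07). Tgfb1, the ligand of that pathway, had 1.56 and 1.45 RPKM in MEFs and 1.88 and 1.66 RPKM in iPSCs and was not called (log2 change 0.23 ± 0.24, adjusted p = 0.529, edgeR, and -0.12 with unique reads alone), although its RNA was lower in iPSCs (limma, adjusted p = 0.00729). The TGF-beta list had 1 loss (4.55%, against 0.97% of all promoters), 0 gains (against 8.13% of all) and a median of -0.12. At an unadjusted p under 0.05 there were 0 higher and 3 lower (edgeR, 0 by DESeq2), where 3011 and 2041 of all 17218 promoters were. In RNA 13 of 22 were lower and 0 higher (limma, 15.5% and 10.3% of all tested genes).

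Few promoters of fibroblast regulators were called. Of 39 mesenchymal transcription factors, among them Twist1, Prrx1 and Zeb1, 1 was a gain (2.56%, against 8.13% of all promoters) and 0 were losses. Their median log2 change was 0.14, while 27 of the 33 that passed the FPKM filter were lower in RNA and 0 higher (limma, 15.5% and 10.3% of all tested genes). Genes silent in iPSCs could pass that filter only through the other cells, which favours lower RNA. The RNA counts of this paragraph therefore speak for the tested members alone. In edgeR 7 were higher and 6 lower at an unadjusted p under 0.05, where 3011 and 2041 of all 17218 promoters were, so these counts are near the background. DESeq2 called none, and with unique reads alone 4 were losses. The 1 gain was Tcf21, a factor of visceral mesenchyme, with 0.377 and 0.535 RPKM in MEFs and 1.44 and 1.08 RPKM in iPSCs (log2 change 1.49 ± 0.34, adjusted p = 0.00439, edgeR), not called without iPSC replicate 1 (1.26). Its RNA was at 0.348 FPKM or less in all libraries. Of 39 Hox genes 2 were gains (5.13%, against 8.13% of all promoters), Hoxd12 and Hoxc11 (log2 change 1.17 ± 0.30 and 1.00 ± 0.30, adjusted p = 0.00969 and 0.0255, edgeR), and both were lost without iPSC replicate 1 (1.04 and 0.85) and with unique reads alone (0.81 and 0.67). Hoxd12 was also lost without MEF replicate 2 (0.93), and Hoxc11 without MEF replicate 1 (0.55), with quantile-normalised levels (1.01) and with equal chromosome medians (0.95). At an unadjusted p under 0.05, 14 Hox genes were higher and 0 lower (edgeR), DESeq2 called none, and the count of gains was 0 without iPSC replicate 1 and 5 without iPSC replicate 2. Over all 17218 promoters 3011 were higher and 2041 lower at that unadjusted threshold. The Hox median was 0.41, while 23 of the 30 Hox genes that passed the FPKM filter were lower in RNA (limma, 15.5% of all tested genes). The contractile list of 22 had 1 loss and 1 gain (4.55% each, against 0.97% and 8.13% of all promoters), with a median of -0.28. In RNA 19 of 21 were lower and 0 higher (limma, 15.5% and 10.3% of all tested genes). The loss was Ankrd1, a muscle ankyrin-repeat protein and Yap target (log2 change -1.37 ± 0.34, adjusted p = 0.00683, edgeR). The gain was Des, the muscle intermediate filament desmin (1.14 ± 0.34, adjusted p = 0.0221, edgeR). Ankrd1 was not called without MEF replicate 1 (-1.17), and Des was not called without MEF replicate 1 or iPSC replicate 1 (0.996 and 1.03), with unique reads alone (0.80) or with quantile-normalised levels (1.01).

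**Figure D4:**
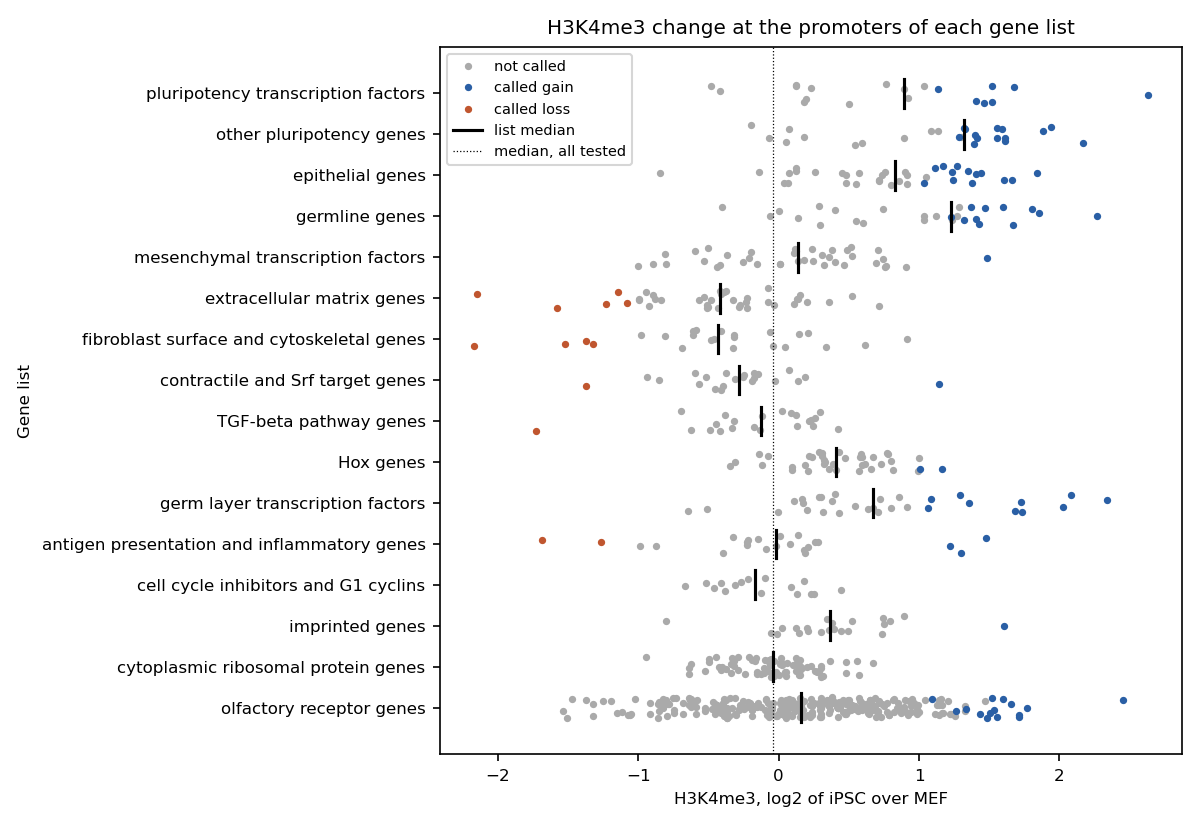
Log2 change of H3K4me3, iPSC over MEF (horizontal axis), of each tested promoter in each gene list (vertical axis), with called gains, called losses and promoters not called in different colours, a bar at the list median and a dotted line at the median of all tested promoters. The medians of the pluripotency, germline, epithelial and germ layer lists lie between 0.68 and 1.32, and those of the matrix and surface lists at -0.41 and -0.43.

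Of 23 antigen presentation and inflammatory genes, 3 (13.0%) were gains, near the 8.13% of all promoters, 2 (8.70%, against 0.97%) were losses and 18 were not called, with a median log2 change of -0.02. The gains were 1 without MEF replicate 1, iPSC replicate 1 or iPSC replicate 2, with unique reads alone and with quantile-normalised levels. The losses were Ccl7, a monocyte chemokine (log2 change -1.68 ± 0.38, adjusted p = 0.00352, edgeR), and Ptgs2, the cyclooxygenase induced by inflammation (-1.26 ± 0.26, adjusted p = 0.00191, edgeR). Ccl7 had 1.02 and 1.2 RPKM in MEFs and 0.335 and 0.348 RPKM in iPSCs, and Ptgs2 had 2.08 and 1.89 and then 0.938 and 0.697 RPKM. The gains were Lif, a cytokine that sustains pluripotency in culture, Nlrc5, an activator of MHC class I genes, and Icam1 (adjusted p = 0.0121 for Lif and 0.0237 for Nlrc5, edgeR). Icam1, an adhesion molecule, had 0.593 and 0.850 RPKM in MEFs and 1.88 and 1.43 RPKM in iPSCs (log2 change 1.22 ± 0.28, adjusted p = 0.00496, edgeR), and its RNA rose from 0.438 and 4.22 to 28.7 and 30.1 FPKM (limma, adjusted p = 0.0206). With unique reads alone Icam1 and Nlrc5 were not called (0.88 and 0.95), and Nlrc5 lies on chromosome 8 and was not called with equal chromosome medians (0.99). Icam1 was also lost without MEF replicate 1 or iPSC replicate 1 (0.97 and 1.0), Nlrc5 without either of these or iPSC replicate 2 (1.25, 1.4 and 1.2), and Lif without iPSC replicate 2 (1.33), while with quantile-normalised levels Nlrc5 and Lif were not called (1.05 and 1.27).

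In the lists outside these programmes the shares of gains were below the 8.13% of all promoters, and there were 0 losses, against 0.97% of all. The imprinted genes had 4.55% gains. The cell cycle and imprinted lists are too small for their counts to tell them from all promoters. Of 76 cytoplasmic ribosomal protein genes edgeR called 0 gains and 0 losses (3 higher and 5 lower at an unadjusted p under 0.05, 0 by DESeq2), with list medians of 1.62 and 1.51 RPKM in MEFs and 1.51 and 1.51 RPKM in iPSCs. Of 16 cell cycle inhibitors and G1 cyclins none was called either way (0 higher and 2 lower at an unadjusted p under 0.05, 0 by DESeq2), with a median of -0.17. Of 22 imprinted genes 1, Slc22a18, an organic cation transporter, was a gain (log2 change 1.61 ± 0.41, adjusted p = 0.0088, edgeR), not called without MEF replicate 1 (0.98) or iPSC replicate 2 (1.13) or with quantile-normalised levels (1.39), and the list median was 0.37. Of 1108 olfactory receptor genes only 317 were tested, with 15 gains (4.73%, against 8.13% of all promoters), 0 losses and a median of 0.16. At an unadjusted p under 0.05, 43 were higher and 11 lower (edgeR, 0 by DESeq2), where 3011 and 2041 of all 17218 promoters were. The gains were 1 without iPSC replicate 1, 5 without MEF replicate 1 and 26 without MEF replicate 2, and with unique reads alone there were 9 gains and 14 losses. Over all 1108, tested or not, the level had a median of 0.189 and 0.283 RPKM in MEFs and 0.201 and 0.232 RPKM in iPSCs. The calls of the tested ones turned to 1 gain and 9 losses with quantile-normalised levels.

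The losses named by the rule for strongly marked promoters came from genes of several kinds. Of the 12 named by the rule, Rbms3, an RNA-binding protein of mesenchymal cells, had 2.10 and 2.01 RPKM in MEFs and 0.704 and 0.774 RPKM in iPSCs (log2 change -1.48 ± 0.27, adjusted p = 0.000598, edgeR), and its RNA was 13.4 and 24.7 FPKM in MEFs and 0.982 and 1.52 FPKM in iPSCs. Irgm1, an interferon-induced GTPase, had 2.26 and 1.95 RPKM in MEFs and 0.670 and 0.968 RPKM in iPSCs (-1.38 ± 0.26, adjusted p = 0.000919, edgeR). Cish, a suppressor of cytokine signalling, had 2.00 and 2.11 RPKM in MEFs and 0.771 and 0.851 RPKM in iPSCs (-1.34 ± 0.26, adjusted p = 0.00106, edgeR). All 3 were lower in RNA as well (limma, adjusted p = 0.00339, 0.00387 and 0.0271). Mff and Elovl1, which act in mitochondrial fission and fatty acid elongation, also fell in both readouts, with log2 changes of H3K4me3 of -1.21 ± 0.25 and -1.2 ± 0.25 (adjusted p = 0.00191 and 0.00209, edgeR). Mettl13, Tmx1, Ept1, Tmem135, Utp6 and Zfp658 had log2 changes of H3K4me3 between -1.26 and -1.15 (adjusted p from 0.00164 to 0.00354, edgeR) with no called change of RNA. Tmem135 was not called without MEF replicate 1 (-0.93), and Elovl1, Ept1 and Utp6 were not called without iPSC replicate 1 (-1.01, -0.93 and -0.98). With quantile-normalised levels Ept1 and Utp6 were not called (-0.996 and -0.947).

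The largest of these losses rested on 1 library. Cwc22, a splicing factor, had 1.40 and 5.48 RPKM in MEFs and 0.838 and 1.08 RPKM in iPSCs (log2 change -1.82 ± 0.37, adjusted p = 0.00151, edgeR), and -0.55 without MEF replicate 2, which was not called. H3 in its window was 0.117 and 0.626 RPKM in MEFs and 0.236 and 0.238 RPKM in iPSCs, high in the same MEF library.

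The RNA of the same genes was measured separately and did not enter the choice of gains and losses. Expression was tested with limma on log2(FPKM + 1) in 12401 genes, of which 10.3% had more RNA in iPSCs and 15.5% had less. Of the gained promoters only 468 belonged to tested genes, 215 of which (45.9%) rose and 21 (4.49%) fell, the median being 1.05 on the log2 scale. A gene silent in MEFs passed the FPKM filter only through the other cells, so this count does not speak for all 1399. Most gains lay at genes with little RNA, since 951 of 1399 (68.0%) were under 1 FPKM in all 4 libraries, against 30.1% of all tested promoters. A further 216 (15.4%, against 4.77% of all) were at 1 FPKM or more in both iPSC libraries only. The gains were weakly marked in MEFs, and weakly marked promoters that did not gain were not compared. These shares therefore cannot be told apart from those of a low level in MEFs. Of the 156 lost promoters with tested genes, 59 (37.8%) were lower and 2 higher, with a median of -0.79, and 120 of 167 (71.9%) were at 1 FPKM or more in all 4 libraries. Without iPSC replicate 1 these counts were 90 higher at the gains and 11 lower at the losses, and without iPSC replicate 2 they were 137 and 31. The 21 gains with lower RNA were 5 when either was left out.

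Most genes that changed in RNA were not called in H3K4me3. Of 12141 genes tested in both readouts, 3.85% gained and 1.28% lost H3K4me3. Among these, 1202 had higher RNA in iPSCs, of which 17.9% gained H3K4me3. A further 1900 had lower RNA, of which 3.11% lost it and 1.11% gained it. Among 9039 genes with no called change of RNA, 2.57% gained and 1.05% lost it. The median log2 change of H3K4me3 was 0.30, -0.25 and -0.20 in these classes.

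H3K27me3 was measured in the same windows and did not enter the choice of gains and losses. Over 9173 promoters tested for H3K27me3, 9.19% were higher and 3.83% lower in iPSCs (edgeR, same rule). At the 167 losses the median level of H3K27me3 was 0.128 and 0.128 RPKM in MEFs and 0.228 and 0.177 RPKM in iPSCs, while over all tested promoters it was 0.192 and 0.205 and then 0.285 and 0.266 RPKM. Of the lost promoters only 35 had enough reads to be tested, of which 18 were higher and 0 lower (24 higher and 0 lower at an unadjusted p under 0.05, DESeq2 0 and 0). With levels this low in MEFs, a lost promoter passed the filter mainly if it was high in iPSCs, so this count gives no direction for the 167. Of 1315 gained promoters, 38 were higher and 52 lower, with 99 and 152 at an unadjusted p under 0.05. At 7.58% of the gains H3K27me3 exceeded the level of the top 10% of promoters in all 4 libraries, against 1.71% of all tested promoters. This share, too, cannot be told apart from that of promoters with little H3K4me3 in MEFs. Without iPSC replicate 2 edgeR called 0 promoters for H3K27me3 in the whole table, so every H3K27me3 call below is lost without that library. The 18 losses that were higher became 7 without MEF replicate 1, 4 without iPSC replicate 1 and 8 without MEF replicate 2, and the gains were then 13 higher without MEF replicate 1 and 9 higher and 25 lower without iPSC replicate 1. DESeq2 called 7 promoters higher and 4 lower over the whole table.

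By list, the matrix medians of H3K27me3 were 0.128 and 0.179 RPKM in MEFs and 0.484 and 0.502 RPKM in iPSCs, and those of the pluripotency factors 0.609 and 0.486 RPKM and then 0.199 and 0.266 RPKM. Of the members with enough reads, 19 of 32 matrix, 12 of 19 fibroblast surface and 10 of 33 mesenchymal factor promoters were called higher, and 6 of 13 pluripotency factor and 12 of 21 other pluripotency promoters lower, where 9.19% of all tested promoters were higher and 3.83% lower. Members near 0 in 1 cell type passed the filter only through the other, so these counts are given as values of the tested members alone. Tgfb1, with H3K4me3 in both cell types, had H3K27me3 of 0.0321 and 0.128 RPKM in MEFs and 0.541 and 0.650 RPKM in iPSCs (log2 change 2.75 ± 0.52, adjusted p = 9.84e-05, edgeR). Col1a1 had 0.128 and 0.128 RPKM in MEFs and 0.769 and 0.561 RPKM in iPSCs (2.35 ± 0.48, adjusted p = 0.000326, edgeR). Sall4 went the other way, from 0.994 and 0.793 to 0.114 and 0.118 RPKM (-2.89 ± 0.47, adjusted p = 1.42e-05, edgeR), and Nanog, with no called change in H3K4me3, from 0.769 and 0.895 to 0.285 and 0.236 RPKM (-1.67 ± 0.39, adjusted p = 0.00145, edgeR).

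**Figure D5:**
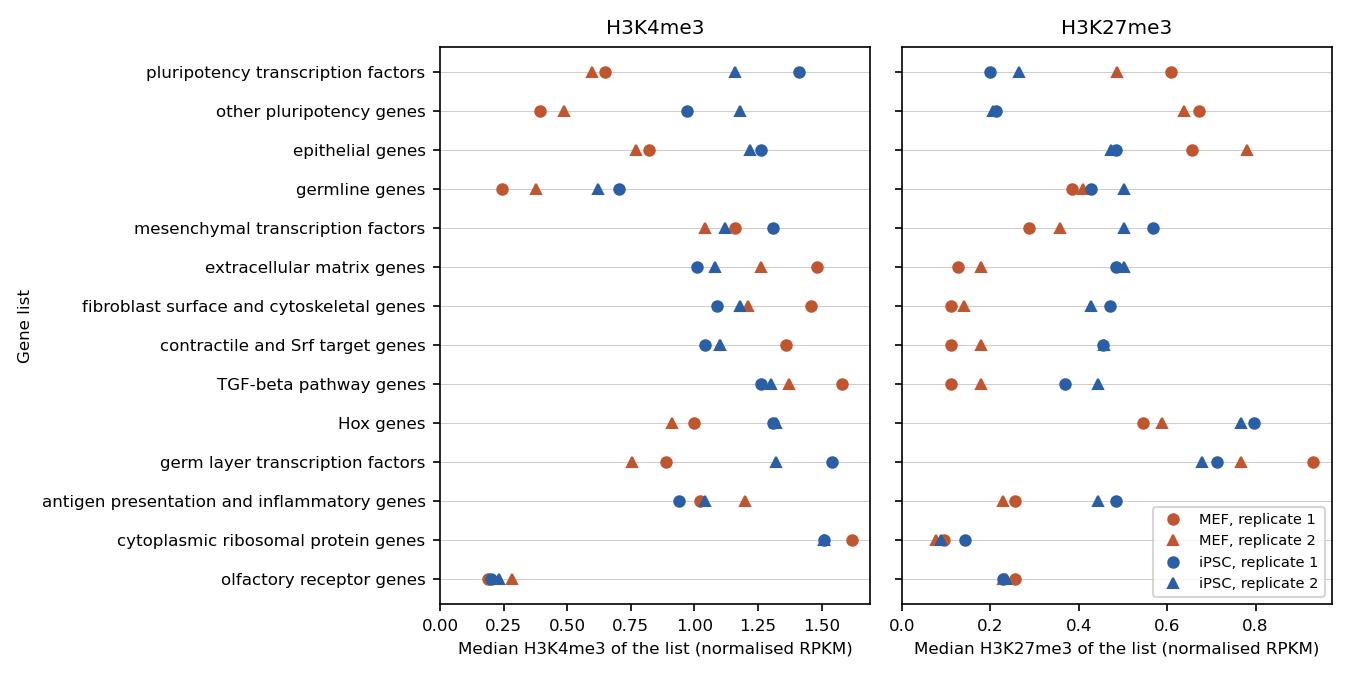
Median H3K4me3 (left) and H3K27me3 (right) of gene lists in normalised RPKM, with 1 point per library of MEFs and iPSCs. For the matrix genes H3K27me3 goes from 0.128 and 0.179 in MEFs to 0.484 and 0.502 in iPSCs, and for the pluripotency transcription factors it goes from 0.609 and 0.486 to 0.199 and 0.266.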

How the data were processed

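Nucleosomal H3K4me3, H3K27me3 and H3 were measured by MNase ChIP-seq, and RNA by sequencing, in MEFs, pre-iPSCs and iPSCs, 2 samples each. The authors mapped the ChIP-seq reads with Bowtie to mm9, retained those that mapped once and called nucleosomes with GeneTrack, and the deposited counts are the reads of each call. Reads outside calls are not analysed here. The authors computed the deposited FPKM values with TopHat2 and Cufflinks for RefSeq genes, in 1 table per replicate number.

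Reads of calls with the dyad (start + 73 bp) within 1000 bp of a TSS were summed here. Promoters were tested with edgeR 4.0.16 (filterByExpr, unique reads as library size, TMM, glmQLFTest), with DESeq2 1.42.0 as the alternative, and expression with limma 3.58.1 (trend) on log2(FPKM + 1), with the table as covariate, for genes of at least 0.5 FPKM on average in the 6 libraries. A call needs a Benjamini-Hochberg adjusted p below 0.05 over all features and a 2-fold change. In fits that omit 1 library, the lone one of its cell type is assumed to vary like the rest. R 4.3.3 and Python 3.11.15 were used.

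The members and gene lists were chosen with earlier results of these data known. Named genes are the up to 12 gains and 12 losses of largest change with at least 2 RPKM in the higher cell type, no overlap of libraries and no other TSS within 2000 bp (4 gains qualified), the genes the paper names in its results with Sox2, Klf4, Myc and Pou5f1, and up to 3 called members of each list per direction. Alternatives for GC content, quantile normalisation, chromosome medians and chromosome 8 were added after the data were seen. In data simulated for this H3K4me3 comparison over 17218 promoters, 47 of 100 planted 2-fold and 100 of 100 planted 4-fold changes were found at the false discovery rate, with 11 false calls. Changes were planted only at promoters above a minimum mean count, and all counts were drawn with edgeR's own common dispersion. The simulation takes that spread as given, so it cannot show that the calls in the real data are reliable, least of all at promoters with few reads. Deviations of same-numbered libraries had a correlation of -0.00178, so the numbers were not taken as pairs. The authors' columns of comparisons were not used.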

Additional observations from a re-analysis of the deposited data

How the results depend on the processing

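Against 1399 gains and 167 losses of H3K4me3, the count of gains was 30 with DESeq2, 650 with TMM over 10-kb bins, 713 with unique reads alone, 729 with reads in calls, 676 in windows of 500 bp, 362 with glmTreat against 1.5-fold, 698 with quantile-normalised levels and 2510 with H3 reads as an offset. The count of losses was 0 with DESeq2, 541 with TMM over 10-kb bins, 1300 with unique reads alone, 1289 with reads in calls, 606 with no fold limit, 16 with glmTreat and 898 with the H3 offset. Of the 1399 gains and 167 losses, 1151 and 80 were called again with the H3 offset, 563 and 47 in windows of 500 bp, and 1083 and 81 in windows of 2000 bp. With 1 library left out, gains ranged from 527 to 1673 and losses from 122 to 305. A replicate block gave 1533 gains and 179 losses and changed no count by over 1.5 times. H3K27me3 was higher at 38 gains, lower at 52 gains and higher at 18 losses. With DESeq2 these counts were 0, 1 and 0, in windows of 500 bp they were 6, 5 and 1, and with 1 library left out they ranged from 0 to 30, 0 to 60 and 0 to 8. RNA was higher at 215 and lower at 21 of the gains, and lower at 59 and higher at 2 of the losses. With 1 library left out these ranged from 90 to 219, 5 to 24, 11 to 60 and 0 to 7, and the last count was 1 with no filter, with no table term and with only 4 libraries. The cause of these changes was not tested. No called named gene changed sign. Of those not called, the log2 change of H3K4me3 at Tgfb1 was -0.0657 with TMM over 10-kb bins, -0.12 with unique reads alone, -0.11 with reads in calls and -0.57 with the H3 offset, that at Col1a1 was 0.011 and that at Klf4 0.10 in windows of 500 bp, and Klf4 was at 0.44 in windows of 2000 bp. In RNA with 1 library left out, Cwc22 ranged from -0.174 to 1.01, Tmem135 from -0.287 to 0.0553, Lif from -0.865 to 0.114 and Slc22a18 from -0.111 to 1.22. Of the other values of H3K4me3 at the named promoters, 1135 kept direction and side of the threshold, 224 fell below it and 21 passed it. The median promoter held 32 reads per library, and the effect of depth on the calls was not tested.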
